A study of Mus musculus with 4 samples.

Results

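The collagen chains of K7M2, a metastatic mouse osteosarcoma cell line, were compared between cells over-expressing GFP (1 array) and cells over-expressing ezrinT567A-GFP (3 arrays, replicates 1 to 3). Ezrin anchors proteins of the cell surface to cortical actin, and the T567A form carries alanine in place of the C-terminal threonine that is otherwise phosphorylated. Both over-expressed products carry GFP in their names, and all cells were grown in DMEM with fetal bovine serum. Neither the promoter of the transgene nor the number of clones is given in the labels. Members were the genes of the form Col, number, a, number, named by 1 gene symbol in the platform annotation. Of 42 such genes, Col17a1, a transmembrane collagen of hemidesmosomes, was left out, which gave 41 members of 18193 genes measured. Each gene is represented by its brightest probe set, by mean log2 over the 4 arrays, and 16 of the 41 lay above the median of all genes (5.04). The other 25 are called dim below, since signal over background was not analysed here.

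Collagens are secreted proteins built from 3 chains wound into a triple helix, each chain a long run of repeats that begin with glycine. Chains are hydroxylated, glycosylated and folded in the endoplasmic reticulum, trimmed outside the cell and cross-linked. Fibrillar chains (types I, II, III, V, XI, XXIV and XXVII) make fibrils, and type I is the main protein of bone matrix. Type IV chains make the sheet of basement membranes, type VI makes beaded filaments around cells, and FACIT chains attach to the surface of fibrils.

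All values are log2 expression, and differences are the ezrinT567A-GFP mean minus GFP. The labels do not state whether the 3 replicates came from different cultures, so p-values reflect array-to-array spread, which may be technical, and the test takes GFP, with 1 array, to have that same spread. With 4 arrays the smallest exact permutation p is 0.25. Ezr itself, by its probe sets, differed by 0.01 and 0.33, which does not check the labels if the probes lie outside the transgene. Hybridization spike-ins were lowest in GFP (9.32) and highest in replicate 2 (11.11), with 10.13 and 10.38 in replicates 1 and 3, and 18S rRNA was also highest in replicate 2 (11.35, against 7.65 to 9.09 elsewhere). The 3' minus 5' signal, a sign of RNA quality, was lowest in GFP for both control genes. For Gapdh it was -0.27 in GFP and -0.24 to -0.18 in the replicates, and for beta-actin 0.23 and 0.31 to 0.43. Osteoblast markers were mixed: Phex lay between 6.76 and 8.28 and Sp7 between 5.05 and 5.41, whereas the defining Alpl (3.36 to 4.02), Ibsp (2.74 to 2.88) and Dmp1 (1.90 to 1.97) were dim on every array.

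After limma's adjustment over all genes no collagen chain was called, which with so few arrays does not show that the chains were alike: 0 of 41 members had an adjusted p under 0.05, where 0 of 18193 genes did (0%). At an unadjusted p under 0.05 there were 4 members, Col5a1, Col18a1 and Col6a2 on the lower side and Col14a1 on the higher side. That is 9.76% of members, beside 14% of all genes (7.46% higher and 6.5% lower). The mean was above GFP for 25 members and below for 16, beside 56.1% of all genes above. At least 1.5-fold apart with all 3 arrays on one side of GFP were Col5a3 and Col4a5 above (all genes 3.51%) and Col6a3 below (all genes 3.06%), and 0 members were 2-fold apart (all genes 1.68%). The median difference was 0.04 over the members and 0.03 over all genes. The members' shares lay near or under those of all genes, and what follows describes single chains, none of which passed the test.

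**Figure D1:**
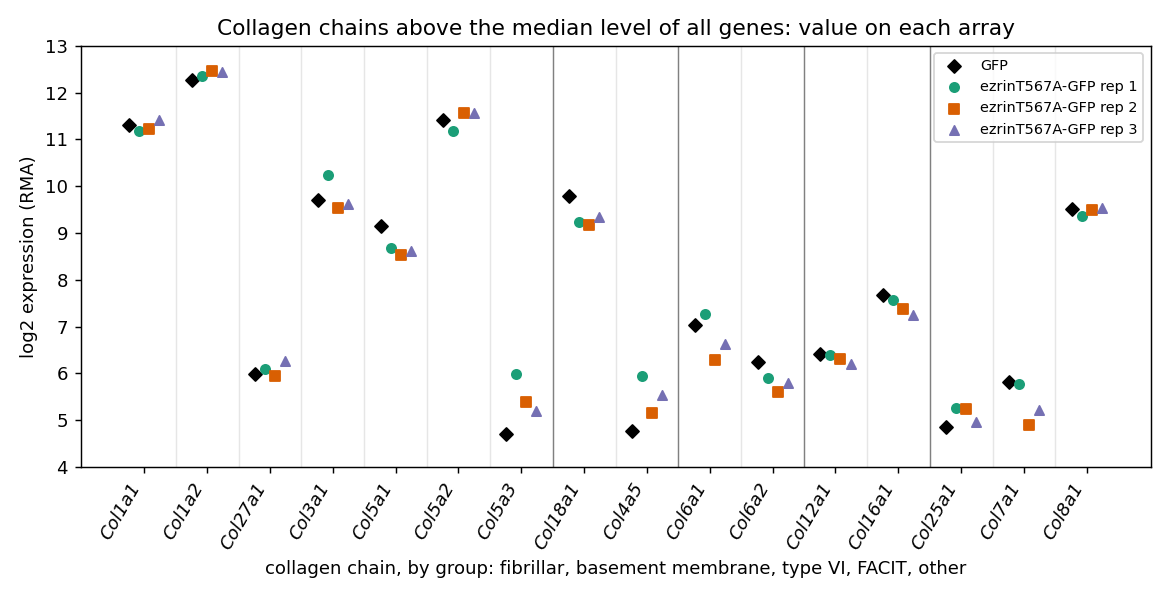
Log2 expression (vertical axis) of the 16 collagen chains above the median level of all genes, with 1 point for each of the 4 arrays, ordered by group (dark vertical lines). The 3 ezrinT567A-GFP arrays lie above GFP for Col1a2, Col5a3, Col4a5 and Col25a1. They lie below it for Col5a1, Col18a1, Col6a2, Col12a1, Col16a1 and Col7a1. Levels of different genes come from different probes and are not comparable.

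Upstream sequence is shown for 4 chains picked by hand, and not every brighter chain with a difference beyond its SE is among them. Col5a1 and Col5a3 are chains of one collagen type on opposite sides of GFP. Col4a5 is the basement membrane chain with the largest difference, and Col1a2 is a type I chain. Col18a1 and Col6a2 are among the brighter chains not shown. Each run is the 250 bases before the RefSeq start of the gene in GRCm38.p6, 5' to 3' on the gene's strand, at chr2:27886175-27886424 (+), chr9:20815068-20815317 (-), chrX:141475169-141475418 (+) and chr6:4505368-4505617 (+). Capitals mark a match on either strand to a core motif, which is CCAAT for the box of that name, GGGCGG for the GC box that Sp1 family factors bind, or TATAAA for the usual box near a start.
Col5a1: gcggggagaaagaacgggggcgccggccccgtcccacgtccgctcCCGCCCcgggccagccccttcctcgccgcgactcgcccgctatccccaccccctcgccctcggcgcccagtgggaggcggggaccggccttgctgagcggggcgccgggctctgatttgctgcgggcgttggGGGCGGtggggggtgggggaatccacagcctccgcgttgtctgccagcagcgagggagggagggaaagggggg
Col5a3: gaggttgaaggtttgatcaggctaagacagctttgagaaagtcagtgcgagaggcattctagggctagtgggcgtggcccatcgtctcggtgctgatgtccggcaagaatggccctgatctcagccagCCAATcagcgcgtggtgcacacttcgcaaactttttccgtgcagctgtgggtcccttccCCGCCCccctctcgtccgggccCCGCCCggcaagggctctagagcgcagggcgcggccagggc
Col4a5: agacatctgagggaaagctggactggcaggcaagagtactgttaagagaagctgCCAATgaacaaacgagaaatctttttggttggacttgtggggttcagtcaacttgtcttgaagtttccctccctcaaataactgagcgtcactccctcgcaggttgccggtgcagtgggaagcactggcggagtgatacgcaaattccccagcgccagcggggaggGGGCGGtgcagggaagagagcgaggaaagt
Col1a2: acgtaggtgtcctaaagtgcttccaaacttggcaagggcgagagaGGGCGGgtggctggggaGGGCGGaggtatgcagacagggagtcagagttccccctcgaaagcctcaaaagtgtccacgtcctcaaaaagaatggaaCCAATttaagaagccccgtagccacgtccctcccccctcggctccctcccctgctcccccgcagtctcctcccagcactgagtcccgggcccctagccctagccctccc
In these windows Col5a1 held 2 GGGCGG and 0 CCAAT, Col5a3 held 2 GGGCGG and 1 CCAAT, Col4a5 held 1 of each, and Col1a2 held 2 GGGCGG and 1 CCAAT, with 0 TATAAA in all 4. The G and C content was 76.4% for Col5a1, 62.8% for Col5a3, 54% for Col4a5 and 62% for Col1a2. RefSeq windows matched 32 of the 41 members, in 35 windows. Among these 35, 21 (60%) held GGGCGG, 12 (34.3%) CCAAT and 4 (11.4%) TATAAA, beside 32.7%, 33.8% and 12.4% of 32851 windows of all genes. A match is a string of letters and not a measured binding site, and chains on both sides of GFP held GGGCGG.

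Among the fibrillar chains, those of type I lay close to GFP on all arrays. Col1a1, the chain present in 2 copies in the type I trimer, was 11.31 in GFP and 11.18, 11.22 and 11.41 in replicates 1, 2 and 3. GFP lay between the replicates, and the difference was -0.04 (SE 0.12, 95% interval -0.36 to 0.29, limma adjusted p = 0.926). A further Col1a1 probe set varied far more, at 9.14 in GFP and 8.35, 10.37 and 8.84, with replicate 2 highest, and its mean difference was 0.05 (SE 0.85). Col1a2, the partner chain, was 12.28 in GFP and 12.36, 12.45 and 12.45. All 3 replicates were above GFP, by 0.14 (SE 0.08, limma adjusted p = 0.487), and the further probe sets of Col1a2 gave 0.19 and 0.45.

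The type III chain and the type V chain Col5a2 lay on both sides of GFP. Col3a1, which forms fibrils with type I in soft tissue, was 9.71 in GFP and 10.24, 9.54 and 9.62, so replicate 1 stood above GFP and the others below. Its difference was 0.09 (SE 0.32, 95% interval -0.77 to 0.95). It was -0.13 without replicate 1, 0.21 without replicate 2, 0.18 without replicate 3 and 0.79 with the spike-in covariate. Col5a2, which lies inside type I fibrils, was 11.42 in GFP and 11.19, 11.57 and 11.57, on both sides of GFP, a difference of 0.03 (SE 0.19, 95% interval -0.48 to 0.54).

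Col5a1, the chain needed for type V trimers that start fibril growth, was 9.14 in GFP and 8.69, 8.54 and 8.61. All 3 replicates lay below GFP and close to each other, at 8.61 ± 0.07 (SD, n = 3), a difference of -0.53 (SE 0.11, 95% interval -0.84 to -0.22), which is 1.44-fold. The limma adjusted p was 0.245, the lowest among the members. Its further, dimmer probe sets did not repeat this size, with differences of -0.15 and 0.07, and the mean of the 3 probe sets gave -0.20. Col5a3, the less widespread type V chain, was 4.70 in GFP and 5.98, 5.39 and 5.20. All replicates were above GFP and replicate 1 was highest, with a difference of 0.82 (SE 0.34, 95% interval -0.11 to 1.75, limma adjusted p = 0.393), which is 1.77-fold. Without replicate 1 the difference was 0.59, with the spike-in covariate it was 1.32, and a further Col5a3 probe set at about 2 on every array gave 0.01. Between these 2 chains the differences were 1.73, 1.29 and 1.03 apart in the 3 replicates, 1.35 ± 0.36 (SD, n = 3), with no test.

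The remaining fibrillar chains were near GFP. Col27a1, a cartilage fibril chain, was 5.98 in GFP and 6.09, 5.95 and 6.27, a difference of 0.12 (SE 0.17), while its dim probe set gave -0.27. Col2a1 and Col11a2, chains of cartilage fibrils, differed by -0.06 and -0.0046, and Col11a1 and Col24a1 by 0.07 and 0.11, all from dim levels. In all, 7 of 11 fibrillar chains were above GFP and 4 below, with a median of 0.07. By array the median was 0.08, 0.02 and 0.0084.

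**Figure D2:**
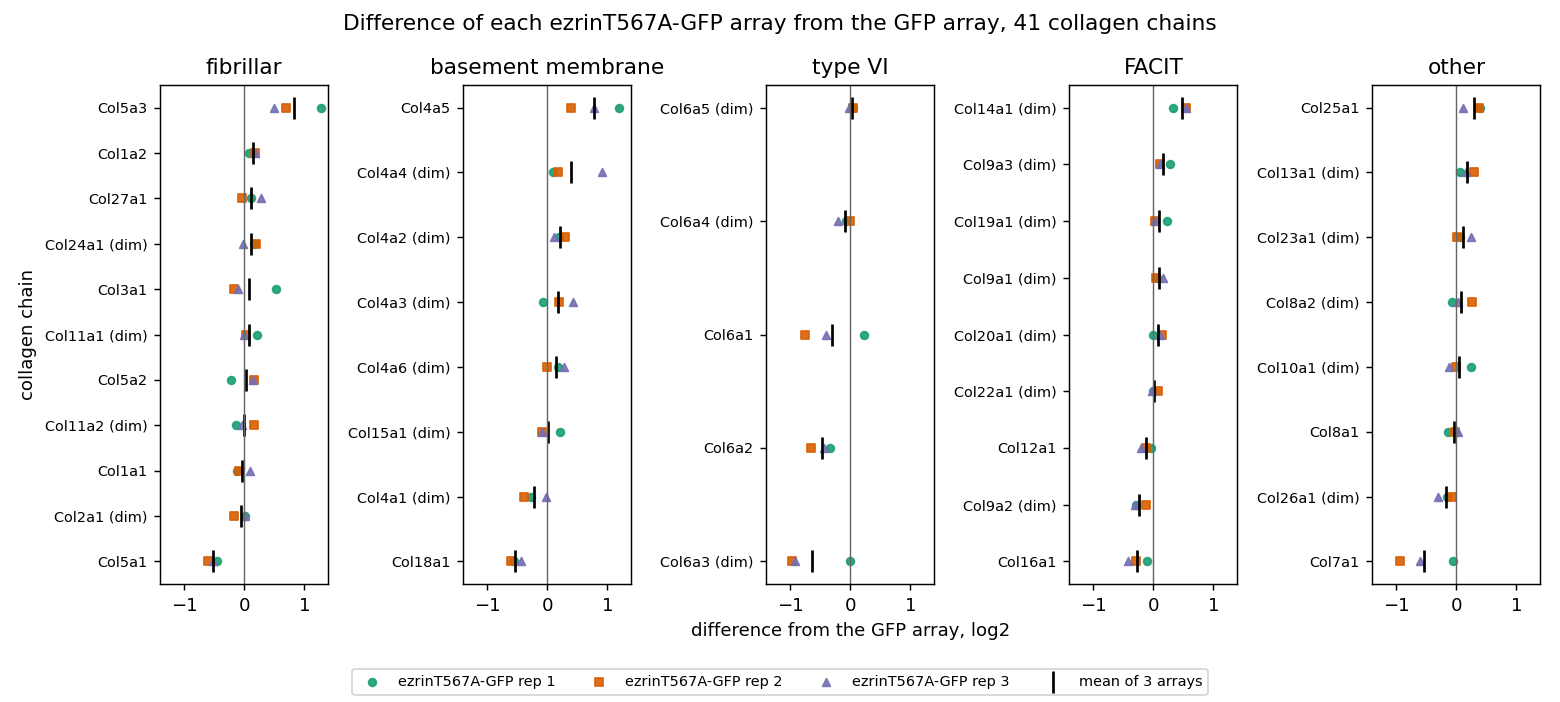
Difference from the GFP array on the log2 scale (horizontal axis) for all 41 collagen chains, by group, with 1 point per ezrinT567A-GFP array and a bar at their mean. Col5a3 and Col4a5 stand farthest above 0, and replicate 1 stands apart from replicates 2 and 3 for Col6a1, Col6a3 and Col7a1.

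The 2 basement membrane chains above the median level lay on opposite sides of GFP. Col18a1, a heparan sulfate collagen of basement membranes whose C-terminal fragment is endostatin, was 9.78 in GFP and 9.23, 9.17 and 9.35. All 3 replicates were below GFP, at 9.25 ± 0.09 (SD, n = 3), a difference of -0.53 (SE 0.11, 95% interval -0.84 to -0.22, limma adjusted p = 0.246), which is 1.44-fold. Its further probe set was 9.44 in GFP and 8.95, 8.89 and 8.82, a difference of -0.55 (SE 0.11). Col18a1 was thus lower by a like amount with both probe sets, and over the alternatives its difference ran from -0.58 to -0.41.

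Col4a5, the X-linked type IV chain of kidney and other specialised basement membranes, was 4.76 in GFP and 5.95, 5.15 and 5.53. All replicates were above GFP. The difference was 0.78 (SE 0.34, 95% interval -0.13 to 1.70, limma adjusted p = 0.405), which is 1.72-fold. Its further probe set was 4.52 in GFP and 5.58, 5.04 and 5.29, also a difference of 0.78 (SE 0.25), with the same order of the 3 replicates. Without replicate 1 the difference of the brighter probe set was 0.58, and with the spike-in covariate it was 1.69.

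The other type IV chains and Col15a1 were dim. Col4a1 and Col4a2, which together form the common type IV network and are transcribed in opposite directions from windows that share 78 bases, lay on opposite sides of GFP. Col4a1 was 4.48 in GFP and 4.22, 4.09 and 4.46, a difference of -0.22 (SE 0.18), and Col4a2 was 3.17 in GFP and 3.37, 3.46 and 3.29, a difference of 0.20 (SE 0.12). The gap between them was 0.43 ± 0.27 (SD, n = 3), and both chains were dim. Col4a4 was 2.07 in GFP and 2.17, 2.24 and 2.97, so that replicate 3 carried most of its 0.39. Col4a3, Col4a6 and Col15a1 differed by 0.18, 0.15 and 0.0094. The group's median was 0.17, with 6 of 8 above GFP and 6 of 8 dim.

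By their median, type VI chains were lower in replicates 2 and 3 and near GFP in replicate 1. Col6a2 was lower in all 3 by its brightest probe set only. Col6a1, 1 of the 3 chains of the common type VI filament, was 7.04 in GFP and 7.27, 6.29 and 6.63, a difference of -0.31 (SE 0.41, limma adjusted p = 0.801). GFP lay between the replicates, and the difference was -0.58 without replicate 1 and -0.09 without replicate 2. Its neighbour on chromosome 10, Col6a2, was 6.24 in GFP and 5.91, 5.59 and 5.80, all below GFP, and differed by -0.48 (SE 0.17, limma adjusted p = 0.348). The further Col6a2 probe set was 5.80 in GFP and 5.87, 5.63 and 5.46, with replicate 1 above GFP, a difference of -0.14. Col6a3, the largest of the 3 chains, was 4.83 in GFP and 4.82, 3.86 and 3.90, so replicate 1 lay at the level of GFP and the others well below it, and the mean difference was -0.63 (SE 0.44). The dim Col6a4 and Col6a5, chains of a later described branch of the family, differed by -0.09 and 0.02.

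The group's median was -0.31 over 5 chains, with array medians of -0.01, -0.65 and -0.41 in replicates 1, 2 and 3. It was -0.55 without replicate 1, -0.14 without replicate 2 and -0.26 without replicate 3. After adding spike-in level to the fit it was 0.0014, Col6a1 turned to 0.75 and Col6a2 was -0.10, where the spike-in level also sets GFP apart from the other arrays. The part of spike-in level in the type VI values was not tested beyond this fit.

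Among the FACIT chains, those above the median level were slightly lower. Col12a1, which sits on type I fibrils of dense tissue and bone, was 6.42 in GFP and 6.38, 6.31 and 6.21, a difference of -0.12 (SE 0.13). A dimmer Col12a1 probe set gave a far larger difference, from 5.80 in GFP to 5.01, 4.29 and 4.83, which is -1.09 (SE 0.32, limma adjusted p over all probe sets = 0.354). All 3 replicates were below GFP with both of these, and they disagree on the size. The further Col12a1 probe sets, dim with mean levels of 2.14 and 2.10, gave 0.23 and -0.015, each with 2 replicates above GFP. Col16a1, a minor fibril-associated chain, was 7.67 in GFP and 7.57, 7.38 and 7.24, a difference of -0.27 (SE 0.17, limma adjusted p = 0.554).

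Col14a1, a further fibril-surface chain, was 2.97 in GFP and 3.29, 3.52 and 3.52, a difference of 0.47 (SE 0.14, limma adjusted p = 0.303). It was dim on every array, and its further probe sets gave -0.17 and 0.01. The other dim FACIT chains, of types IX, XIX, XX and XXII, ran from -0.24 (Col9a2) to 0.17 (Col9a3). Of 9 FACIT chains 6 were above GFP and 3 below, with a median of 0.08.

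The remaining chains have varied roles. Col7a1, the anchoring fibril chain that ties epithelial basement membrane to the tissue beneath, was 5.82 in GFP and 5.76, 4.89 and 5.21, all below GFP with replicate 1 nearly equal to it. The difference was -0.53 (SE 0.37, 95% interval -1.54 to 0.47, limma adjusted p = 0.596), and it was -0.77 without replicate 1, -0.33 without replicate 2 and 0.43 with the spike-in covariate. Beside it, 8 of 10 epithelial markers were lower in all 3 replicates (all genes 25.6%). The mean level of the 10 was 4.61 in GFP and 3.46 to 3.74 in ezrinT567A-GFP, and 2 of them lay above the median level of all genes. Krt5 differed by -2.05 and the dim Krt17 by -2.54, with -0.20 by a further Krt17 probe set. In such bulk RNA, fewer cells of a type and less RNA per cell cannot be told apart, and the part of these markers in the values of Col7a1 and of the basement membrane chains was not tested. Of 8 macrophage markers 6 were dim, Ptprc among them (2.10 to 2.22), while Csf1r lay between 11.89 and 12.22 on all arrays and Cd14 was 7.16 in GFP and 8.12, 8.18 and 8.01, a difference of 0.94 (SE 0.13). All 8 endothelial markers were dim. Chondrocyte markers had a median of 0.01, with 6 of 8 above GFP (all genes 56.1%). Skeletal muscle markers had a median of 0.13, with 8 of 8 above GFP and 4 of them in all 3 arrays (all genes 32.5%). In each list 1 of 8 lay above the median level of all genes, and the part of these markers in the collagen values was not tested.

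Col8a1, a short-chain collagen of hexagonal networks, was 9.51 in GFP and 9.37, 9.49 and 9.54, a difference of -0.04 (SE 0.11, 95% interval -0.35 to 0.26). Its dimmer probe sets lay above GFP instead, from 8.34 in GFP to 8.74, 8.82 and 8.80 (0.44, SE 0.10) and from 5.93 to 6.07, 6.29 and 6.13 (0.23, SE 0.15), with all replicates above GFP. Col25a1, a transmembrane collagen, was 4.85 in GFP and 5.25, 5.24 and 4.97, a difference of 0.30 (SE 0.17, limma adjusted p = 0.516). The 5 dim chains Col8a2, Col10a1, Col13a1, Col23a1 and Col26a1 ran from -0.18 to 0.17. The group's median was 0.06.

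**Figure D3:**
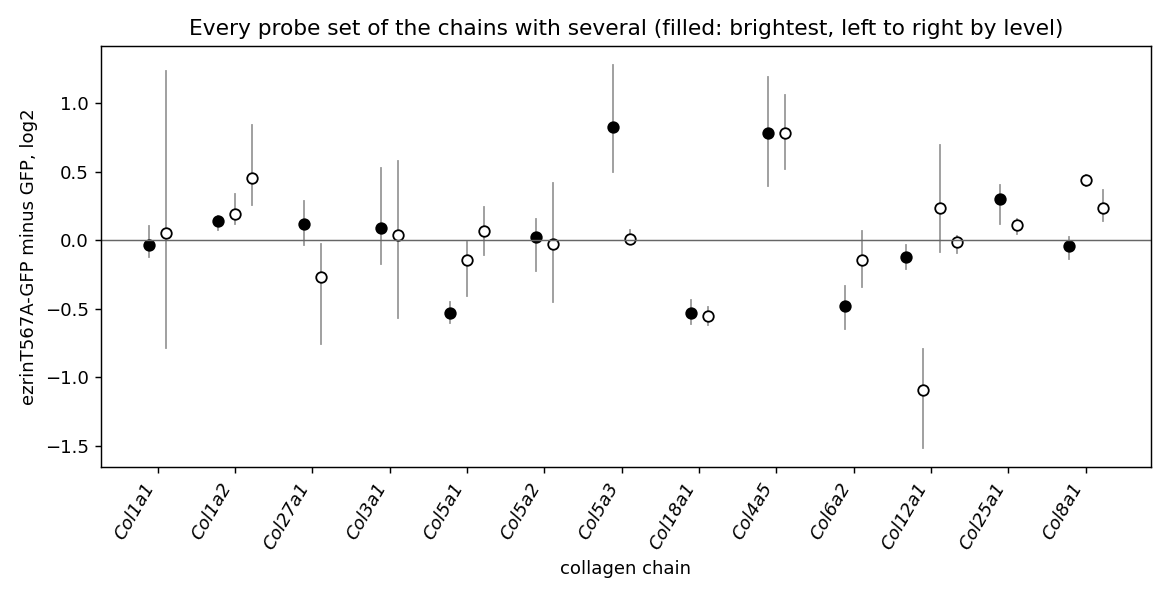
Mean difference on the log2 scale (vertical axis) of every probe set of the chains above the median level that have several, with a line from the lowest to the highest of the 3 ezrinT567A-GFP arrays. The filled point is the brightest probe set. Probe sets of Col18a1 and of Col4a5 lie together, while those of Col5a1, Col5a3, Col8a1 and Col12a1 do not.

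Over all members 27 had more than 1 probe set, 81 probe sets in all, and in 16 of the 27 the probe sets differed in sign. With limma over all 34945 probe sets 0 of the 81 passed, and the lowest adjusted p was 0.30, for the second Col18a1 probe set. The spread between replicates also differed between chains. Col3a1, Col4a4, Col4a5, Col5a3, Col6a1, Col6a3 and Col7a1 had an SD of at least 0.3 over the 3 ezrinT567A-GFP arrays, 7 of 41 members (17.1%), beside 8.44% of all genes. The limit of 0.3 was chosen after the values were seen, and the median SD was 0.123 over the members and 0.129 over all genes. Replicate 1 was the highest of the 3 arrays for 6 of these 7, all but Col4a4, and for 39.5% of all genes with such an SD.

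Position on the chromosomes was set beside the differences, because the median difference varied between chromosomes in these arrays. Genes of chromosome 1 above the median level had a median of -0.34 (510 genes). The 7 collagen chains of that chromosome had a median of 0.09 with 6 above GFP, and Col6a3 was the 1 below. Only 2 of these 7, Col3a1 and Col5a2, lay above the median level, so the dim others are set beside brighter genes. Relative to the chromosome, Col3a1 stood at 0.42 and Col5a2 at 0.36, both above the median level of all genes, and Col6a3 at -0.30. Col3a1 and Col5a2 are neighbours, as are Col9a1 (0.09) and Col19a1 (0.09) and Col4a3 (0.18) and Col4a4 (0.39). Genes of chromosome 8 above the median level had a median of 0.24 (516 genes), beside which the dim Col4a1 stood at -0.46 and the dim Col4a2 at -0.03. On chromosome X, with a median of -0.14, Col4a5 stood at 0.92 and its dim neighbour Col4a6 at 0.29. The other neighbours were Col6a1 and Col6a2 on chromosome 10 and Col6a4 and Col6a5 on chromosome 9. Col5a1, Col5a3 and Col18a1 kept their side, at -0.64, 0.86 and -0.55.

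The enzymes that modify collagen chains lay on both sides of GFP. Of 15 genes of hydroxylation and glycosylation 10 were above GFP and 5 below, beside 56.1% of all genes above, with a median of 0.13. Limma passed 0 of them after adjustment and 3, all higher, at an unadjusted p under 0.05, beside 7.46% of all genes. Plod3, a lysyl hydroxylase that also adds sugars, was 8.45 in GFP and 8.86, 8.75 and 8.74, a difference of 0.33 (SE 0.11). Colgalt1, which adds galactose to hydroxylysine, was 9.01 in GFP and 9.35, 9.23 and 9.31, a difference of 0.29 (SE 0.11). It lies on chromosome 8, where genes above the median level had a median of 0.24. The dim Colgalt2 differed by 0.32 (SE 0.11). All replicates were above GFP for these 3 genes.

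Folding and export showed no common side, with 7 of 13 genes above GFP and a median of 0.01. The COPII coat genes Sec23a (0.36, SE 0.12) and Sec31a (0.31, SE 0.11) were higher in all 3 replicates. Klhl12, the ubiquitin ligase adaptor that acts on the Sec31 coat to allow large procollagen carriers, was 6.57 in GFP and 6.14, 5.95 and 6.11, a difference of -0.50 (SE 0.14, limma adjusted p = 0.287). It lies on chromosome 1, where genes above the median level had a median of -0.34.

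Outside the cell, 8 procollagen processing genes had a median of 0.11, 5 of them above GFP. Pcolce, the enhancer of C-propeptide removal, differed by -0.24 (SE 0.09) with a further probe set at 0.19, and the dim meprin genes Mep1a and Mep1b by 0.46 (SE 0.18) and 0.30 (SE 0.15). Cross-linking enzymes split: Loxl4, a lysyl oxidase, was 8.19 in GFP and 9.06, 8.87 and 8.79, a difference of 0.72 (SE 0.15, limma adjusted p = 0.239), and a further probe set gave 0.75. Its relative Loxl3 was 9.17 in GFP and 8.66, 8.87 and 8.70, a difference of -0.42 (SE 0.13), and Lox differed by 0.18 (SE 0.17). The median over the 5 cross-linking genes was -0.02.

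Within these 7 lists, the only genes at least 2-fold apart were the fibril organisers Ogn and Prelp. Ogn, the leucine-rich osteoglycin (mimecan), was 8.30 in GFP and 9.64, 10.13 and 9.88, a difference of 1.58 (SE 0.21, limma adjusted p = 0.187), and its further probe set gave 1.57. Prelp, a leucine-rich protein that anchors basement membrane to collagen, was 8.45 in GFP and 6.86, 5.45 and 5.38. The difference was -2.55 (SE 0.67, limma adjusted p = 0.282), with -1.59 by a further probe set. Prelp lies on chromosome 1, where genes above the median level had a median of -0.34. Bgn, biglycan, was 10.57 in GFP and 10.42, 9.70 and 9.72, a difference of -0.63 (SE 0.34), with replicate 1 nearest GFP as for Prelp. Over the 13 genes 9 were above GFP and 4 below, with a median of 0.04.

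Both discoidin domain receptors, the kinases that bind fibrillar collagen, were lower. Ddr1 was 7.81 in GFP and 7.37, 7.23 and 7.40, a difference of -0.47 (SE 0.13, limma adjusted p = 0.285), though a further probe set gave 0.015. Ddr2 was 9.27 in GFP and 9.03, 8.73 and 8.91, a difference of -0.38 (SE 0.15). It lies on chromosome 1, where genes above the median level had a median of -0.34. The integrin Itga10 was dim and differed by 0.20 (SE 0.13), and the median of 10 receptor genes was 0.02. Of 18 genes of transcriptional and other control of collagen 12 were below GFP and 6 above, with a median of -0.18, and 10 were below in all 3 replicates (all genes 25.6%). Smad3, a mediator of TGF-beta signals, was 7.63 in GFP and 7.27, 7.32 and 7.38, a difference of -0.31 (SE 0.12), the dim forkhead gene Foxf2 differed by -0.80 (SE 0.24) with a further probe set at 0.0064, and the dim Larp6, which binds type I collagen mRNA, by -0.28 (SE 0.11). Across these 7 lists limma passed 0 of 82 genes after adjustment over all genes, while 12 reached an unadjusted p under 0.05, beside 14% of all genes.

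**Figure D4:**
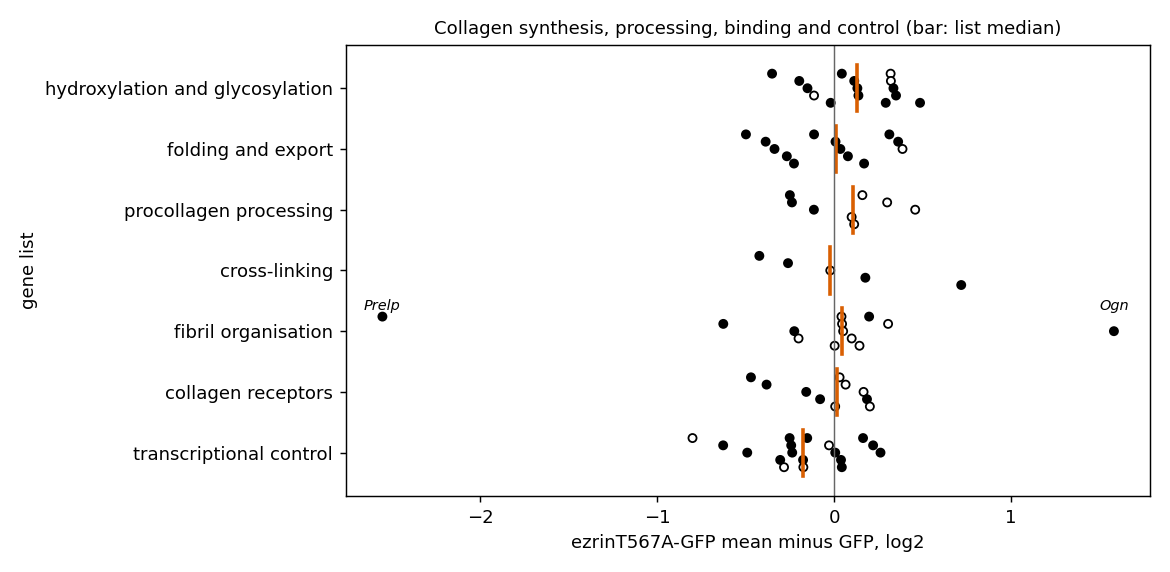
Difference on the log2 scale (horizontal axis) of each measured gene of 7 lists of collagen synthesis, processing, binding and control (vertical axis), with filled points for genes above the median level, open points for dim genes, and a bar at each list's median. Ogn at 1.58 and Prelp at -2.55 stand apart, and the list medians lie between -0.18 and 0.13.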

How the data were processed

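Expression was measured on 4 one-colour Affymetrix arrays. The authors deposited 1 log2 value per probe set and array, and the submitters' processing notes name RMA, with no version. The log2 scale was read from the range of the values. RMA brings arrays to nearly one distribution, which hides any difference in the amount of RNA per cell. Of 45101 probe sets 34945 non-control sets with 1 gene symbol were kept, 932 listed several and 9211 were not listed. The brightest per gene gave 18193 genes.

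The fit used lmFit and eBayes with a mean trend (limma 3.58.1, R 4.3.3) and set ezrinT567A-GFP (3 arrays) against GFP (1), with Benjamini-Hochberg adjustment over all genes, threshold 0.05, two-sided. Residual degrees of freedom were 2, with 2.23 added by the prior, and each SE is moderated. No filter on dim genes was used. Scripts were tested on simulated data. Plots were made in Python 3.11.15 (matplotlib 3.10.9). The number of arrays limits the precision.

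Members, groups and gene lists were chosen with earlier results of these data known. All chains above the median of all genes are named with every array's value, other chains by ranges or where they share a type or locus, and up to 3 genes per pathway list by smallest p. Chromosomes and neighbours came from the RefSeq genes of GRCm38.p6, joined by gene ID, and promoters come from RefSeq. Alternatives covered normalization, probe sets, dim genes, eBayes priors, a spike-in covariate, chromosome medians and leaving out each replicate.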

Additional observations from a re-analysis of the deposited data

How the results depend on the processing

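No paired analysis was possible because the GFP group holds 1 array and shares no pairing with the replicates. Under every alternative with a test 0 collagen chains passed limma's adjusted threshold. The count of all genes passing was 0 in the main setting and 0 without each replicate, without a trend or with the spike-in covariate, but 36 after quantile normalization, 26 after median centring, 3 without dim genes, 6 with the mean of probe sets and 9 with a robust prior. Chains at least 1.5-fold apart numbered 2 to 4. Of the 16 named chains 9 kept their sign throughout, and 178 of 190 values did. That count overstates stability, because the eBayes settings and leaving out dim genes cannot change the difference of a named chain. With the mean of probe sets Col1a1 (0.0070), Col27a1 (-0.076) and Col8a1 (0.21) changed sign, with the spike-in covariate Col5a2 (-0.34), Col6a1 (0.75) and Col7a1 (0.43), and after centring Col5a2 (-0.021). Without each replicate in turn the signs also varied for Col1a1 (-0.11 to 0.0080), Col3a1 (-0.13 to 0.21), Col5a2 (-0.037 to 0.15) and Col8a1 (-0.078 to 0.0034).

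The median over all members was 0.041 and became -0.0069 after centring, 0.0070 with the mean of probe sets, -0.040 without dim genes, -0.0042 after subtracting chromosome medians, and 0.023 to 0.052 without each replicate. That of fibrillar chains (0.075) became 0.027 after centring, 0.0070 with the mean of probe sets, 0.12 after subtracting chromosome medians, and 0.037 to 0.075 without each replicate. Basement membrane chains (0.17) gave 0.057 with the mean of probe sets and 0.077 to 0.17 without each replicate, and type VI chains (-0.31) gave -0.55 to -0.14 without each replicate. FACIT chains (0.084) gave 0.036 after centring, -0.038 with the mean of probe sets, -0.075 when _s_at, _x_at and _a_at sets were left out, -0.20 without dim genes, -0.082 with the spike-in covariate, -0.029 after subtracting chromosome medians and 0.029 to 0.052 without each replicate. The other chains (0.057) gave 0.041 after quantile normalization, 0.0095 after centring, -0.043 without dim genes, -0.0070 after subtracting chromosome medians and 0.021 to 0.065 without each replicate.
The causes of these shifts were not tested. Leaving out dim genes tests 16 chains and the choice by kind of probe set 38, so those medians cover fewer chains.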
